A study of Mus musculus with 12 samples.

Results

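The genes for 5 proteins that the body secretes against microbes, Reg3b, Reg3g, Lcn2, Chil1 and Chil3, were followed through livers of septic mice. They were taken by symbol from the 25611 genes of the deposited count table. They had been picked for the very large rises of Reg3b, Reg3g and Chil1 after sepsis in these same mice, so that the comparison of septic with control mice is a description of them and is given without a test. Whole livers of male C57BL/6J mice aged 8 to 10 weeks were sequenced, 4 mice in each of 3 groups, all collected 30 hr post-surgery. Sham mice had an abdominal incision without ligation or puncture. CLP mice had cecal ligation and puncture, in which the cecum is tied off and pierced so that gut bacteria leak into the abdomen. CLP+DCA mice had the same surgery and received dichloroacetate (DCA), an inhibitor of the pyruvate dehydrogenase kinases, at 25 mg/kg by intraperitoneal injection 24 hr post-surgery, 6 hr before collection. The labels describe an injection 24 hr post-surgery for every sample, and what sham and CLP mice were injected with is not given in the sources used here. All animals received subcutaneous saline, and no group of DCA without CLP was analysed here.

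Reg3b and Reg3g are small C-type lectins, made in quantity by gut epithelium, that bind and kill bacteria at mucosal surfaces, and Reg3g acts mainly on Gram-positive species. Lcn2 is a lipocalin that holds bacterial siderophores, the molecules with which bacteria capture iron, and the liver is a known source of it in the acute phase response. Chil1 and Chil3 descend from chitinases, bind sugars but have lost the enzyme activity, and are known as products of inflamed epithelium, macrophages and neutrophils.

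Reg3b (NCBI Gene 18489, mm10 chromosome 6, 78370885 to 78373466, plus strand) and Reg3g (19695, chromosome 6, 78466269 to 78468874, minus strand) lie 92802 bases apart. Reg3d, Reg3a, Reg2 and Reg1 lie between them in that order. Lcn2 (16819) spans 32384637 to 32387739 on the minus strand of chromosome 2. Chil1 (12654) spans 134182404 to 134190031 on the plus strand of chromosome 1, and Chil3 (12655) spans 106147554 to 106167564 on the minus strand of chromosome 3. The 250 bases before the start sites of the paired lectins are shown because these related genes ordered the mice nearly alike (RefSeq, GRCm38.p6, the assembly behind mm10; chr6:78370635-78370884, plus strand, and chr6:78468875-78469124, minus strand). Capitals mark the letters TTCNNNGAA, the motif of STAT factors.
Reg3b: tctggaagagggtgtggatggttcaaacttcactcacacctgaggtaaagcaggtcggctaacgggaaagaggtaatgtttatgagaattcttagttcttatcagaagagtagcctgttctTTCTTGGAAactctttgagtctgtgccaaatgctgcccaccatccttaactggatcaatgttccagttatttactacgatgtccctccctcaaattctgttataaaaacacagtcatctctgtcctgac
Reg3g: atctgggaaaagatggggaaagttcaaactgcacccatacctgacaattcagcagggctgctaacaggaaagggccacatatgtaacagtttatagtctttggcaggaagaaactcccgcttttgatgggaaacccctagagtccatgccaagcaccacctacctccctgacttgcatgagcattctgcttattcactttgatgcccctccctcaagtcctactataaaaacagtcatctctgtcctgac
Over the 300-base windows that reach 50 bases past the start site, 207 of 296 aligned bases were identical (69.9%). The longest run shared upstream was 20 bases and directly preceded both start sites. The motifs searched for on both strands of each member's window were STAT (TTCNNNGAA), C/EBP (TTNNGCAA) and NF-kappaB (GGANTTTCC).

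A single STAT match, 129 bases before the start site, was found for Reg3b and none of the searched motifs for Reg3g. Lcn2 had a C/EBP match on the opposite strand (chr2:32387932-32387971, minus strand), shown with the reverse complement of the motif in capitals, and Chil3 a STAT match (chr3:106167712-106167752, minus strand).
Lcn2: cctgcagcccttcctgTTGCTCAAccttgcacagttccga
Chil3: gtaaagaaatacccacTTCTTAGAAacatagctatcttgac
No match was found in the window of Chil1, whose RefSeq start site differs from the start in the deposited table. Of 32851 mouse promoter windows of the same length, 8.30% held the STAT letters, 10.8% the C/EBP letters and 1.25% the NF-kappaB letters. A match is a description of the letters and not of a bound site.

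The deposited values were unnormalized read counts per gene, between 24436513 and 44266819 reads per mouse. They were scaled to CPM (reads per 1e6 reads) on library sizes adjusted by TMM (trimmed mean of M values), and 13190 genes, all 5 members among them, passed a filter on low counts. The hepatocyte markers summed to between 29465 and 85108 CPM in every liver. One library stood apart from its group: over all tested genes, CLP+DCA replicate 3 lay 1.10 log2 units (root mean square) from the sham mean and 0.636 from the CLP mean. The other 3 CLP+DCA mice lay between 0.342 and 0.439 from the sham mean and between 0.579 and 0.648 from the CLP mean. The results that include CLP+DCA mice are therefore given with and without this mouse, although such a choice of mice was made after their values were known.

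Reg3b was close to absent from sham liver. It had 4, 4, 2 and 12 reads in sham replicates 1 to 4, or 0.149, 0.0990, 0.0633 and 0.328 CPM, and the 22 reads of the group have an exact 95% Poisson interval of 13.8 to 33.3, which covers counting error only. In CLP mice the levels were 153, 387, 150 and 303 CPM, so that the groups lay far apart. In CLP+DCA mice they were 22.9, 6.52, 489 and 6.52 CPM. Replicate 3 had the highest level of all 12 mice, and the other CLP+DCA mice lay above all sham and below all CLP mice.

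Reg3g had 0, 5, 1 and 7 reads in the sham mice, or 0, 0.124, 0.0317 and 0.191 CPM, where the 0 of replicate 1 allows a level of up to 0.112 CPM (3 counts). In CLP mice its levels were 94.5, 326, 125 and 188 CPM. In CLP+DCA mice they were 19.8, 5.85, 616 and 4.68 CPM. The mice fell in the same pattern as for Reg3b, with CLP+DCA replicate 3 highest of all and the other CLP+DCA mice between the sham and CLP groups.

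Reads on Reg3b over reads on Reg3g ranged from 1.19 to 1.62 across the CLP group and from 1.11 to 1.39 across CLP+DCA replicates 1, 2 and 4. CLP+DCA replicate 3, where both lectins were highest, had more Reg3g than Reg3b reads, 22739 against 18046, and its ratio of 0.794 lay below these ranges. The few reads of the sham mice gave ratios from 0.8 to 2 in the 3 mice with a read on Reg3g. The transcripts of these genes (GENCODE vM21) were 73.8% identical over 676 aligned bases, and none of 684 windows of 100 bases of Reg3b, the length of a sequenced read, was found whole in Reg3g.

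Lcn2 differed from the other members in being well expressed without sepsis. Its levels in sham mice were 424, 472, 478 and 457 CPM, a mean of 457.9 ± 24.6 (SD, n = 4). In CLP mice they were 3669, 13489, 3479 and 10651 CPM, with no overlap with sham. In CLP+DCA mice they were 1625, 1760, 9572 and 922 CPM.

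All CLP+DCA mice thus lay above all sham mice for Lcn2, and replicate 3 alone of them lay within the CLP range. Lcn2 supplied between 89.1% and 99.8% of the members' reads in every library. The 5 members together took between 0.0448% and 0.0513% of all counted reads in sham mice, between 0.385% and 1.22% in CLP mice, and 0.181%, 0.182%, 0.986% and 0.0965% in CLP+DCA replicates 1 to 4.

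Chil1 had between 10 and 21 reads in each sham mouse, or 0.372, 0.470, 0.665 and 0.356 CPM. In CLP mice its levels were 8.59, 85.2, 15.8 and 62.9 CPM, the widest range of the members within CLP (the highest 9.91 times the lowest). In CLP+DCA mice they were 2.84, 3.56, 62.1 and 3.15 CPM. CLP+DCA replicates 1, 2 and 4 were close to each other, above all sham and below all CLP mice, while replicate 3 was near the upper CLP mice.

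CLP replicates 2 and 4 had the higher levels of Reg3b, Reg3g, Lcn2 and Chil1 within the CLP group. Their libraries held 24436513 and 25683615 reads, fewer than the other CLP libraries, and had the lowest TMM factors in the series, 0.855 and 0.867. The unscaled shares of reads on members were 1.22% and 0.972% in these mice, against 0.385% and 0.393% in replicates 1 and 3. These shares are still divided by the total reads of each library, and most of the reads on members were on Lcn2. The part of depth and scaling in the order of the CLP mice was not tested for any member.

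Chil3 had the lowest levels of the members in CLP mice. It had 9, 6, 12 and 15 reads in the sham mice, or 0.335, 0.149, 0.380 and 0.410 CPM. In CLP mice its levels were 3.36, 4.84, 2.20 and 3.23 CPM, all above sham. In CLP+DCA mice they were 0.287, 0.538, 5.69 and 0.191 CPM.

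Chil3 was the member for which the CLP+DCA mice other than replicate 3 overlapped the sham mice, and replicate 3 was again highest of all 12. Chil4, a close copy of Chil3 (94.4% identical, 54 of 1440 windows of 100 bases shared), had at most 1 read in any mouse. How reads that match both copies were counted is not stated in the sources used here, so that the level of Chil3 is uncertain to that extent.

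**Figure D1:**
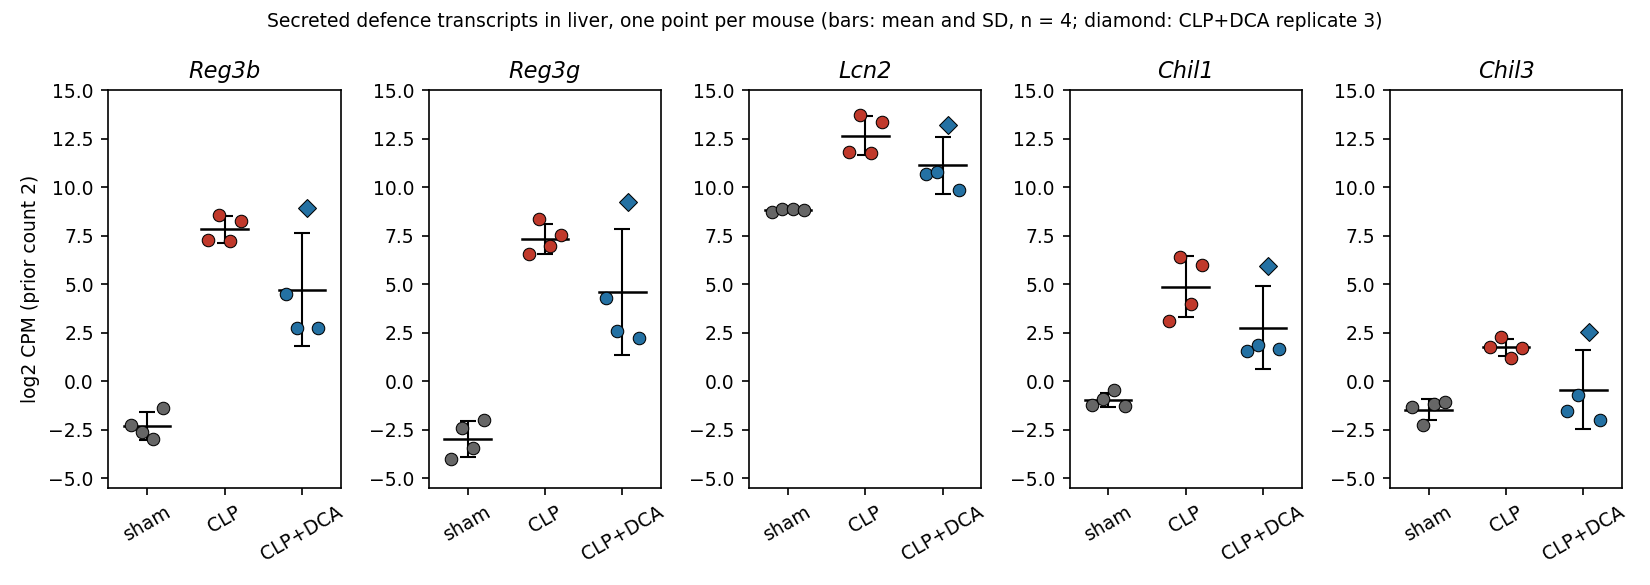
Level of each member as log2 CPM (prior count 2) in sham, CLP and CLP+DCA mice, 1 point per mouse, with the mean and SD of each group (n = 4) and a diamond for CLP+DCA replicate 3. The CLP points lie above the sham points for all 5 genes, and the diamond lies at or above the CLP points for Reg3b, Reg3g and Chil3 and among them for Lcn2 and Chil1.

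Corrected for transcript length (CPM per kb of the longest coding transcript in GENCODE vM21), Lcn2 was the most abundant member in every group. In sham mice it stood at 500.4 ± 26.8 CPM per kb (SD, n = 4), against 0.253 ± 0.0773 for Chil1, 0.207 ± 0.0763 for Chil3, 0.204 ± 0.150 for Reg3b and 0.113 ± 0.113 for Reg3g, whose ranges overlapped one another. In CLP mice the order of the mean levels per kb was Lcn2 at 8549 ± 5509, Reg3b at 317 ± 149, Reg3g at 238 ± 134, Chil1 at 23.4 ± 20.1 and Chil3 at 2.21 ± 0.705. Only Reg3b and Reg3g overlapped among neighbours in this order. In CLP+DCA mice the ranges of all neighbours overlapped but those of Lcn2 and the next member.

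The size of the rise in CLP versus sham ordered the members otherwise than their level did. The fitted log2 fold changes were 10.86 ± 2.05 (SE) for Reg3g, 10.55 ± 1.80 for Reg3b, 6.51 ± 1.35 for Chil1, 4.09 ± 0.76 for Lcn2 and 3.41 ± 0.96 for Chil3, or 1865-, 1498-, 91.4-, 17.1- and 10.6-fold. The groups did not overlap for 5 of 5 members, as they did not, with CLP higher, for 12.2% of all tested genes, while 1.64% of all tested genes were differentially expressed genes (DEGs) higher in CLP. Since the members were selected on this contrast, nothing is read from these counts. In these bulk libraries more cells of a type and more RNA per cell cannot be told apart.

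**Figure D2:**
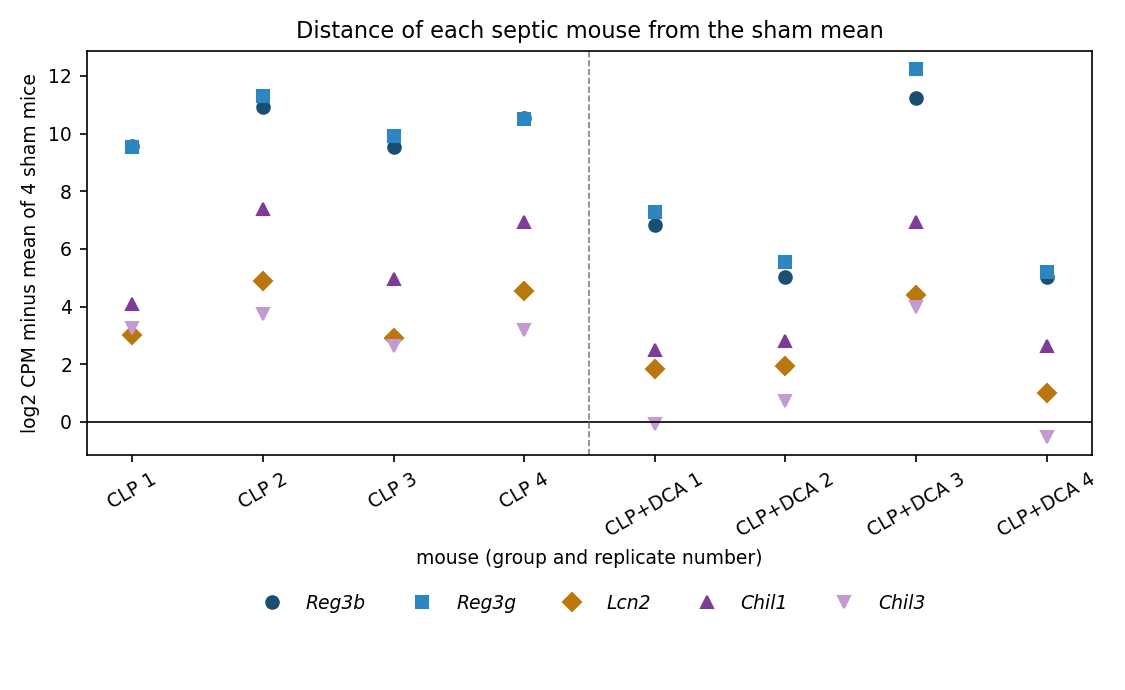
Distance of each CLP and CLP+DCA mouse from the mean of the 4 sham mice, in log2 CPM, for the 5 members. Reg3b and Reg3g lie highest in every mouse, and CLP+DCA replicates 1, 2 and 4 lie closer to the sham mean (0 line) than the CLP mice for each member.

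CLP+DCA versus sham asks whether the septic mice given DCA still differed from controls. The sham mice are those of the contrast above, and their low levels entered the choice of members, so that this contrast is not free of that choice. With all 12 mice fitted, Reg3b was 9.63 ± 1.76 (SE) higher on the log2 scale, Reg3g 10.68 ± 2.04, Chil1 5.26 ± 1.31, Lcn2 2.92 ± 0.73 and Chil3 2.42 ± 0.95. None of these passed edgeR's quasi-likelihood test after Benjamini-Hochberg adjustment over all tested genes, with adjusted p from 0.111 for Reg3b to 0.327 for Chil3. All 5 members had an unadjusted p under 0.05 in edgeR, as had 1714 of 13190 genes, and 4 genes (0.0303%) were DEGs higher in CLP+DCA. DESeq2 on all 12 samples called 4 of the 5 members, all but Chil3, and voom with sample quality weights called 2, Reg3b and Lcn2. Over all genes, DESeq2 called 247 and voom 496 in either direction.

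The ranks of the mice separated these groups for 4 members. All 16 pairs of a CLP+DCA and a sham mouse were higher in CLP+DCA for Reg3b, Reg3g, Lcn2 and Chil1, a separation that 4.78% of all tested genes had. A two-sided exact permutation test on log2 CPM gave p = 0.0286 for each of them, the smallest p that 4 against 4 mice allow, and p = 0.457 for Chil3, with 10 of 16 pairs higher. Adjusted by Benjamini-Hochberg over the 10 exact tests made, the smallest was p = 0.0714 (exact permutation).

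Without CLP+DCA replicate 3, 2 of 5 members were DEGs in CLP+DCA versus sham, against 0.0828% of 13288 genes. Reg3b was then 6.18 ± 0.75 (SE) higher on the log2 scale, 72.3-fold (edgeR, adjusted p = 0.0269), and Reg3g 6.67 ± 0.91 higher, 102-fold (edgeR, adjusted p = 0.0394). Lcn2 was 1.65 ± 0.44 higher (edgeR, adjusted p = 0.271) and Chil1 2.76 ± 0.89 (edgeR, adjusted p = 0.384), with all 12 pairs in that direction for each. Chil3 differed by 0.10 ± 0.46 (edgeR, adjusted p = 0.977), with 6 of 12 pairs higher in CLP+DCA.

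CLP+DCA versus CLP asks whether septic mice given DCA differed from septic mice that were not. The CLP mice are those in which the members were picked for their height, so that this contrast is not free of the choice. With all 12 mice, the log2 differences were -0.92 ± 1.13 (SE) for Reg3b, -0.18 ± 1.22 for Reg3g, -1.17 ± 0.68 for Lcn2, -1.25 ± 1.01 for Chil1 and -0.996 ± 0.834 for Chil3. None of 5 members passed edgeR's test, with adjusted p from 0.596 to 0.969, none had an unadjusted p under 0.05, and DESeq2 called 0 as well. Among all tested genes edgeR called 0 lower in CLP+DCA (0%) and 1 higher, with 1319 at an unadjusted p under 0.05. Voom with sample quality weights, which gives a discordant library less weight, called all 5 members lower in CLP+DCA. In either direction it called 1341 of 13190 genes, and DESeq2 called 136 genes.

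Exact permutation tests gave p between 0.143 and 0.171 for the 5 members in CLP+DCA versus CLP (two-sided, n = 4 per group). For 0 of 5 members did the groups not overlap, against 2.05% of all tested genes lower in CLP+DCA without overlap. In each case the overlap came from CLP+DCA replicate 3. It lay above all 4 CLP mice for Reg3b, Reg3g and Chil3, and above 2 of them for Lcn2 and Chil1.

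Without that mouse, 5 of 5 members were DEGs lower in CLP+DCA than in CLP, against 2.63% of 13288 genes lower and 4.64% in either direction. Reg3b fell by 4.37 on the log2 scale (SE 0.60, edgeR, adjusted p = 0.0128), a 20.7-fold difference. Reg3g fell by 4.18 (SE 0.65, adjusted p = 0.0192) and Chil1 fell by 3.75 (SE 0.77, adjusted p = 0.0330), both in edgeR's test. Chil3 fell by 3.31 (SE 0.42, edgeR, adjusted p = 0.00779) and Lcn2 fell by 2.45 (SE 0.48, edgeR, adjusted p = 0.0275), a 5.45-fold difference. All 12 pairs were lower in CLP+DCA for each member, since the only mouse that overlapped CLP had been left out after its values were seen. Exact permutation tests of these 3 against 4 mice gave p = 0.0286, the smallest they allow, for 4 members and p = 0.0571 for Chil1 (two-sided). These results depend on that choice and on the picking of the members in these CLP mice, so that they are no independent test.

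**Figure D3:**
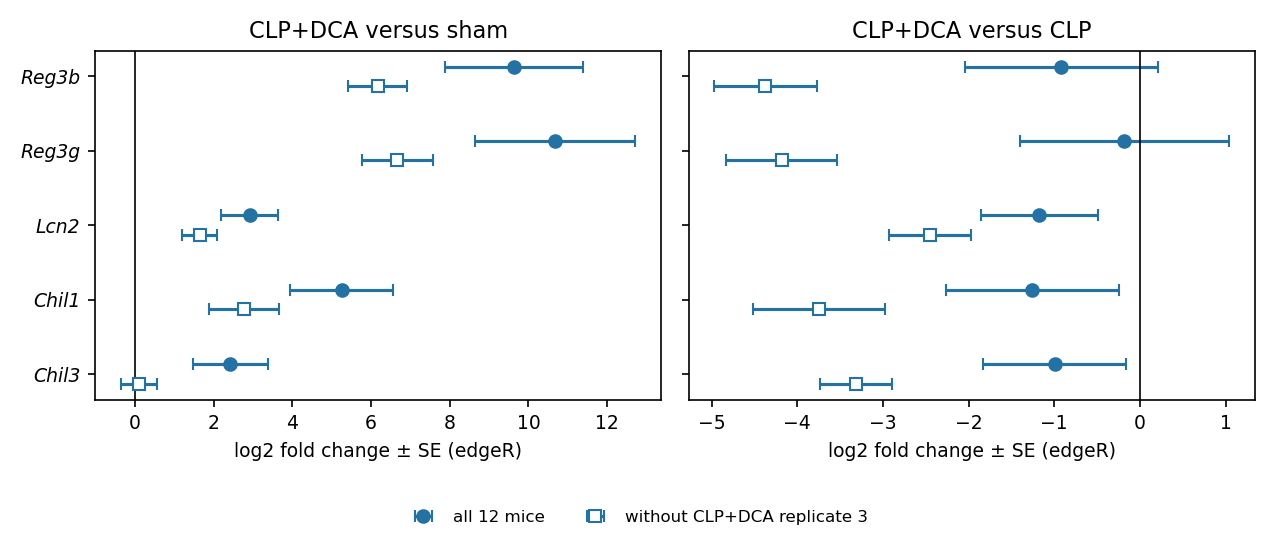
Log2 fold change and SE (edgeR) of the 5 members in CLP+DCA versus sham (left) and CLP+DCA versus CLP (right), with all 12 mice (filled circles) and without CLP+DCA replicate 3 (open squares). In CLP+DCA versus CLP the values lie between -1.25 and -0.18 with all mice and between -4.37 and -2.45 without that mouse.

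The genes of the same families did not share these levels as a whole. Of the 8 genes of the Reg list, 4 passed the low-count filter, among them both members. Reg3a, which lies between the members on chromosome 6, was a DEG in CLP versus sham, where 1.64% of all tested genes were DEGs higher in CLP. It stood at 0.944 ± 0.153 CPM in CLP and 0.00684 ± 0.0137 in sham mice (SD, n = 4 each, log2 fold change 6.41 ± 1.49, SE, edgeR, adjusted p = 0.0475). It had at most 55 reads in a mouse, and outside CLP mice and CLP+DCA replicate 3 it stood at no more than 0.192 CPM. Reg3a thus passed the low-count filter through its CLP levels, and its tests against CLP are not free of that. Without CLP+DCA replicate 3 it was different in CLP+DCA from CLP by a log2 fold change of -3.59 (edgeR, adjusted p = 0.0199). Reg1, Reg2, Reg3d and Reg4 had at most 18, 10, 10 and 7 reads in any mouse. The remaining tested gene of the list, Extl3, which encodes a receptor for Reg proteins, was not a DEG in any contrast with all mice by edgeR (adjusted p = 0.0623 in CLP versus sham). In that contrast voom called Extl3, as did edgeR without CLP+DCA replicate 3, where edgeR called 23.8% of 13288 genes. Over all genes voom called 3453 and DESeq2 1894 in CLP versus sham.

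Of the 10 chitinase and chitinase-like genes, 5 passed the filter. Of those that are not members, Chid1 alone was a DEG in CLP versus sham, where 1.64% of all tested genes were DEGs higher in CLP. Chid1, a widely expressed gene of a lysosomal chitinase-domain protein, rose from 40.1 ± 4.14 to 58.7 ± 10.9 CPM (SD, n = 4 each, log2 fold change 0.55 ± 0.13, SE, edgeR, adjusted p = 0.0476). The other gene of the list with a high level, Ctbs, which encodes the lysosomal chitobiase, stood at 15.03 ± 2.79 CPM in sham and 17.4 ± 1.32 in CLP (edgeR, adjusted p = 0.313). Chit1 and Chia1, which encode the true chitinases, had at most 4 and 2 reads in any mouse.

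Of the 7 genes for binding partners of Lcn2 and Chil1, 5 were tested and 0 were DEGs in any contrast with all mice by edgeR. In CLP versus sham, 4 had an unadjusted p under 0.05, as had 3772 of 13190 genes. DESeq2 and voom called 2 and 3, against 1894 and 3453 over all genes. Tmem219, which encodes a receptor subunit for Chil1, stood at 30.0 ± 2.63 CPM in sham and 24.1 ± 0.818 in CLP (SD, n = 4 each, edgeR, adjusted p = 0.0870). Bdh2, whose enzyme makes the mammalian siderophore that Lcn2 can carry, stood at 12.1 ± 1.59 CPM in sham and 3.00 ± 1.84 in CLP (log2 fold change -1.98 ± 0.62, SE, edgeR, adjusted p = 0.0811). Without CLP+DCA replicate 3, 3 genes of this list were DEGs in CLP versus sham, where 23.8% of all 13288 tested genes were, and Bdh2 was 1.68 higher on the log2 scale in CLP+DCA than in CLP (edgeR, adjusted p = 0.0329), opposite in direction to Lcn2.

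Among 30 other genes for secreted antimicrobial proteins, 21 were tested and 5 were DEGs in CLP versus sham, 4 higher and 1 lower. Of all 13190 tested genes 367 were DEGs, 216 higher and 151 lower. The median log2 fold change of the list was 0.49, against 0.02 over all tested genes. Apcs, the serum amyloid P component, rose from 465 ± 61.7 to 2805 ± 972 CPM (SD, n = 4 each, edgeR, adjusted p = 0.0202). Lbp, which carries bacterial lipopolysaccharide to its receptor, rose from 213 ± 27.2 to 557 ± 170 CPM (edgeR, adjusted p = 0.0275). Slpi, an antiprotease with antimicrobial activity, rose by 2.94 ± 0.61 on the log2 scale (SE, edgeR, adjusted p = 0.0390), and Retnlg, a resistin-like protein of neutrophils, by 3.10 ± 0.54 (edgeR, adjusted p = 0.0254).

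Hamp2, a relative of the iron hormone hepcidin, fell by 4.17 on the log2 scale (SE 0.62, edgeR, adjusted p = 0.0196), from a low 4.40 ± 2.35 to 0.218 ± 0.149 CPM (SD, n = 4 each). Hamp, the gene of hepcidin itself, stood at 855 ± 215 CPM in sham and 611 ± 165 in CLP (edgeR, adjusted p = 0.274). Rnase4, the most abundant gene of the list on average, stood at 2358 ± 236 CPM in sham and 1927 ± 494 in CLP (SD, n = 4 each, edgeR, adjusted p = 0.530). With all mice, edgeR called 0 of the 21 genes in either contrast of the CLP+DCA group. Against sham, 11 had an unadjusted p under 0.05 in edgeR, and DESeq2 and voom called 6 and 3, against 1714, 247 and 496 over all genes. Against CLP, these counts were 2, 1 and 9, and 1319, 136 and 1341 over all genes. Without CLP+DCA replicate 3, 12 were DEGs in CLP versus sham, where 23.8% of 13288 genes were, and 8 were lower and 1 higher in CLP+DCA than in CLP, where 2.63% and 2.01% of all genes were.

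Members of the IL-22, IL-6 and IL-17 pathways, known inducers of Reg3 and Lcn2 genes in epithelium through STAT3, NF-kappaB and its cofactor Nfkbiz, were looked at next. Il22 and Il17a had 0 reads in all 12 mice, and Il6 at most 3 reads in a mouse. Of 26 genes, 20 were tested and 3 were DEGs higher in CLP versus sham, where 1.64% of all tested genes were. The median log2 fold change of the list was 0.37, against 0.02 over all tested genes. Il1b, the cytokine interleukin 1 beta, rose by 1.36 ± 0.31 on the log2 scale (SE, edgeR, adjusted p = 0.0463). Nfkbiz rose by 1.501 ± 0.34 (edgeR, adjusted p = 0.0450), and Cebpd, an acute phase transcription factor, by 2.17 ± 0.40 (edgeR, adjusted p = 0.0283).

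The most abundant genes of the pathway list were Stat3 and the interleukin 1 receptor Il1r1. Stat3 stood at 215 ± 32.8 CPM in sham and 273 ± 16.03 in CLP (SD, n = 4 each, edgeR, adjusted p = 0.228), and Il1r1 at 92.8 ± 25.9 and 312 ± 126 CPM (edgeR, adjusted p = 0.0510). In both contrasts with CLP+DCA mice 0 of 20 genes were DEGs with all mice by edgeR. Against sham, 8 had an unadjusted p under 0.05 in edgeR, and DESeq2 and voom called 3 and 2, against 1714, 247 and 496 over all genes. Against CLP, these counts were 4, 1 and 5, and 1319, 136 and 1341 over all genes. Without CLP+DCA replicate 3, 9 were DEGs in CLP versus sham, against 23.8% of all tested genes. In CLP+DCA versus CLP 4 were then lower, Socs3, Il1b, Osmr and Nfkbiz, and 1, Rela, was higher, against 2.63% and 2.01% of all tested genes. Socs3 had the smallest adjusted p of these (log2 fold change -1.26, edgeR, adjusted p = 0.0101). With all mice it stood at 47.6 ± 8.45 CPM in sham and 141 ± 11.5 in CLP (SD, n = 4 each, edgeR, adjusted p = 0.0522).

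The genes whose pattern over the 12 mice was most like that of a member, by Pearson r of log2 CPM, were largely acute phase genes of the liver for 4 members. For Lcn2 they were Serpina3m (r = 0.993), A2m (0.992) and Orm1 (0.986), which encode a protease inhibitor, alpha-2-macroglobulin and orosomucoid. For Reg3b they were A2m (0.982), Saa3 (0.976) and Apcs (0.968), and for Reg3g A2m (0.978), Saa3 (0.971) and BB123696 (0.965). For Chil1 they were A2m (0.985), Serpina3m (0.983) and Wfs1 (0.979). These correlations describe 12 libraries that share their group differences and are given without a test.

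Chil3 went with other genes. Its 3 nearest were S100a9 (r = 0.979), which encodes a subunit of calprotectin and is a neutrophil marker, Mmp7 (0.976) and Spon1 (0.974). S100a9 stood at 2.06 to 2.57 CPM in sham mice and 11.8 to 16.8 in CLP mice. In CLP+DCA replicates 1 to 4 its levels were 1.56, 4.40, 20.5 and 1.72 CPM, so that its mice were ordered much as for Chil3.

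**Figure D4:**
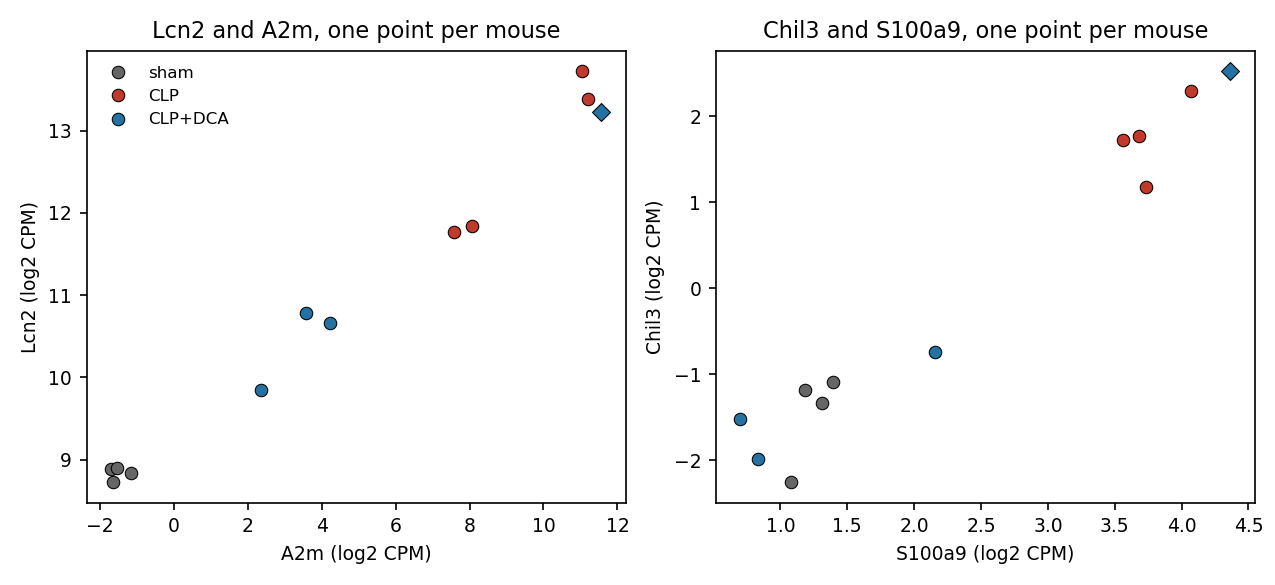
Lcn2 against A2m (left) and Chil3 against S100a9 (right), both axes in log2 CPM (prior count 2), 1 point per mouse, with a diamond for CLP+DCA replicate 3. On the left, 3 CLP+DCA mice lie between the sham and CLP mice. On the right, 2 of these lie near the sham mice.

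The levels of some cell markers differed between the groups as well. The 12 neutrophil markers summed to between 6.46 and 9.30 CPM in sham mice and between 32.2 and 46.2 in CLP mice, and to 6.77, 14.4, 61.4 and 7.19 CPM in CLP+DCA replicates 1 to 4. Of 10 tested, 9 were higher in CLP than in sham, with a median log2 fold change of 2.70. With all mice 1, Retnlg, was a DEG by edgeR, where 1.64% of all tested genes were DEGs higher in CLP. DESeq2 called 7 of them and voom 9, against 1894 and 3453 over all genes. In edgeR 9 had an unadjusted p under 0.05, as had 3772 of 13190 genes. Without CLP+DCA replicate 3, 8 were DEGs by edgeR, where 23.8% of 13288 genes were. Defining markers were low: Mpo had at most 4 reads in any mouse, and Ly6g stood at 0.823 ± 0.159 CPM in sham and 0.459 ± 0.196 in CLP (SD, n = 4 each). The part of neutrophils in the levels of Chil3 and Lcn2, which these cells can also make, was not tested.

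The 12 markers of pancreatic acinar cells, which also make Reg proteins, summed to between 7.30 and 13.4 CPM in sham, 7.13 and 11.8 in CLP and 5.33 and 10.1 in CLP+DCA mice, most of it from Cela1. Among the other markers, the 9 beside Reg1 that did not pass the filter had 1 to 3 reads in all per sham mouse, 1, 0, 98 and 0 in CLP replicates 1 to 4 and 0, 0, 17 and 0 in CLP+DCA replicates 1 to 4. Reg1 itself had 0 reads in the sham mice, 0, 0, 18 and 9 in CLP replicates 1 to 4 and 0, 1, 9 and 0 in CLP+DCA replicates 1 to 4. Reg3b and Reg3g were high in CLP replicate 2 with 0 reads on these markers and on Reg1. They were also high in CLP replicate 4, with reads on Reg1 alone, and in CLP replicate 3 and CLP+DCA replicate 3, with reads on both. The part of acinar cells in their levels was not tested. Markers of intestinal epithelium summed to between 30.2 and 69.7 CPM in sham, 33.3 and 59.1 in CLP and 31.2 and 56.8 in CLP+DCA mice, and Cdx1 and Cdx2 had at most 0 and 1 reads. Cholangiocyte markers summed to between 6.17 and 10.2 CPM in sham and 16.6 and 54.2 in CLP mice, and reached 74.0 in CLP+DCA replicate 3. Most of the sum was Sox9, at 6.27 ± 1.83 CPM in sham, 27.6 ± 18.9 in CLP (SD, n = 4 each) and 71.0 in CLP+DCA replicate 3. Epcam stood at 1.05 CPM in sham and 1.12 in CLP mice, while Krt19 and Krt7 were higher in CLP. With all mice, 0 of 4 tested were DEGs by edgeR (3 at an unadjusted p under 0.05 in CLP versus sham, 1 called by DESeq2 and 2 by voom). Over all genes these 3 counts were 3772, 1894 and 3453. Without CLP+DCA replicate 3, 3 were DEGs in CLP versus sham, where 23.8% of 13288 genes were. Kupffer cell and macrophage markers summed to between 149 and 253 CPM in sham and 234 and 311 in CLP mice. Marco rose most among them, from 9.91 ± 6.37 to 58.6 ± 23.2 CPM (SD, n = 4 each). The median log2 fold change of the 8 was 0.27, and 7 were higher and Clec4f lower in CLP. Monocyte markers summed to between 4.46 and 5.84 CPM in sham and between 7.45 and 13.3 CPM in CLP mice. Of the monocyte markers F13a1 was a DEG in CLP versus sham by edgeR with all mice (log2 fold change 3.05 ± 0.66, SE, adjusted p = 0.0417), where 1.64% of all tested genes were DEGs higher in CLP. DESeq2 and voom each called 2 of 3, against 1894 and 3453 over all genes. Hepatocyte markers summed to between 67901 and 85108 CPM in sham and between 32572 and 48518 in CLP mice. Alb was the 1 of 8 that edgeR called with all mice, lower in CLP, as were 151 of 13190 genes. DESeq2 and voom each called 3 of the 8, against 1894 and 3453 over all genes. Without CLP+DCA replicate 3 edgeR called 4 of the 8, and 23.8% of 13288 genes. The part of the cholangiocyte, macrophage, monocyte and hepatocyte markers in the members' levels was not tested.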

How the data were processed

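RNA-seq of whole livers was available for 12 mice, 4 each of sham, CLP and CLP+DCA, grouped by their labels. The authors prepared poly(A)-enriched TruSeq v2 libraries, mapped paired-end reads to mm10 (STAR 2.5) and ran featureCounts (Subread 1.5.0-p1), and the deposited values are the resulting counts per gene without normalization. The annotation and the strand setting are not given in the sources used here, so that reads of overlapping genes on opposite strands may not be told apart.

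The members, lists and comparisons were chosen with earlier results of these data known. Lists (Reg family, chitinase-like genes, binding partners, other antimicrobial proteins, cytokine signalling, cell markers) came from general knowledge. Counts were analysed in R 4.3.3 with edgeR 4.0.16: filterByExpr (minimum count 10, 13190 of 25611 genes), TMM, 1 robust quasi-likelihood fit of all 12 mice with no covariate, Benjamini-Hochberg FDR 0.05 over all tested genes. SE is the log2 fold change divided by the square root of F. Log2 CPM used a prior count of 2, and for 2 contrasts each member was also compared by a two-sided exact permutation test. Named are all members, from each list other than the cell markers the DEGs of any contrast (at most 6) and the 2 genes of highest mean CPM, and the 3 genes most correlated with each member. Genes named beyond that rule (such as Reg1, Ctbs, Extl3, Il22, Mpo and other markers) were chosen after their values were seen. The model fits, but not leaving out a mouse or the prior count of 0.5, were tested on simulated counts. These had an equal spread for all genes and no discordant library, unlike the data. Alternatives were RLE or no scaling, no filter, DESeq2 1.42.0 on all mice, either tool on only the 8 mice of a contrast, limma 3.58.1 voom with weights per sample, a block for replicate number, a prior count of 0.5, and leaving out each mouse. Counts of list genes without CLP+DCA replicate 3 were added after the data were seen. Sequences came from RefSeq (GRCm38.p6) and transcripts from GENCODE vM21, and all 5 members had a promoter window. Median depth was 30005989 reads, and counting intervals (95%) cover counting error only.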

Additional observations from a re-analysis of the deposited data

Results flagged for a closer look

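In the CLP+DCA group, 1 mouse lay far from the other 3 for every member: the gap between CLP+DCA replicate 3 and the next mouse was 0.966 of the group's whole CPM range for Reg3b, 0.975 for Reg3g, 0.903 for Lcn2, 0.988 for Chil1 and 0.937 for Chil3. Each is above Dixon's critical value for 4 samples. No such gap was found for the sham or CLP mice, so that 5 of 15 groups of values passed, where chance gives about 1 in 20, and the members are not independent of each other. On log2 CPM 1 of 15 passed, Chil1 (0.928). The cause was not tested.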

How the results depend on the processing

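The median log2 fold change of the members in CLP versus sham, 6.51, stayed between 5.94 and 6.86 when each mouse was left out and moved by less than the SD between CLP mice under every alternative. The 0 members called in CLP+DCA versus sham became 4 with DESeq2 on all mice, 2 with voom and 0 to 2 when 1 mouse was left out (2 without CLP+DCA replicate 3), and those in CLP+DCA versus CLP became 5 with voom and 0 to 5 when 1 mouse was left out (5 without CLP+DCA replicate 3). Over all alternatives the members' adjusted p ranged from 2.9e-12 (Reg3b, DESeq2) to 0.977 in CLP+DCA versus sham and from 0.00425 to 0.998 in CLP+DCA versus CLP, and DESeq2 on the 8 mice compared gave no adjusted p for 5 of these 10 values. Reg3g in CLP+DCA versus CLP, -0.18, ranged from -4.18 (without CLP+DCA replicate 3) to 0.25 when 1 mouse was left out: it reversed to 0.25 without CLP replicate 2 and of 0.19, 0.22 and 0.22 without CLP+DCA replicates 1, 2 and 4. Of the 10 exact tests, 4 were under 0.05, and 3 to 8 when 1 mouse was left out (8 without CLP+DCA replicate 3).

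Counts of all DEGs depended strongly on the setting. In CLP versus sham the 367 became 209 by library size alone, 122 without a filter, 1894 with DESeq2 on all mice, 2387 with edgeR and 3428 with DESeq2 on the 8 mice compared, 3453 with voom, and 10 to 3157 when 1 mouse was left out. In CLP+DCA versus sham the 5 became 3 by library size alone, 247 with DESeq2 on all mice, 0 and 169 with edgeR and DESeq2 on the 8 mice, 496 with voom and 1 to 11 leaving out 1 mouse. In CLP+DCA versus CLP the 1 became 136, 0, 80 and 1341 under these settings and 0 to 616 leaving out 1 mouse. With the replicate number as a block the counts were 46, 0 and 4, and 0 members were called in either contrast with CLP+DCA. No pairing of mice by these numbers is named in the sources used here. Deviations of same-numbered mice from their group means correlated from -0.46 to 0.55, with 1 of 12 pairs over 0.1, which cannot exclude a pairing. Reg3b, Reg3g, Chil1 and Chil3 in sham, at 0 to 21 reads per mouse, are limited by counting error.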
